A study of Mus musculus with 8 samples.

Results

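The FOXA and C/EBP families were followed through 7 genes, 3 FOXA genes (*Foxa1*, *Foxa2*, *Foxa3*) and 4 C/EBP genes (*Cebpa*, *Cebpb*, *Cebpd*, *Cebpg*), chosen by gene symbol from 23467 genes measured in 8 libraries. All 7 had a mean of at least 1 RPKM (reads scaled to gene length and to the library's read total) and were therefore among the 13421 genes tested. FOXA proteins are forkhead factors that can bind their sites in closed chromatin and open it for other factors, and *Foxa1* and *Foxa2* are together needed for the liver to form from endoderm. C/EBP proteins are basic leucine zipper factors that bind DNA as dimers with each other. *Cebpa* drives the metabolic genes of the hepatocyte, *Cebpb* and *Cebpd* act in the response to cytokines such as interleukin 6 and oncostatin M, and *Cebpg*, which lacks a strong activation domain, pairs with the other members and with ATF4.

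The cells were hepatoblasts, the common precursors of hepatocytes and biliary epithelial cells (BECs), taken from E14.5 livers of B6;129 mixed mice and put in culture. They were sequenced as cultured hepatoblasts (iHBs) on collagen-coated plates, as induced hepatocytes (iHPs) after 5 days with 12.5 ng/ml oncostatin M, and as induced BECs (iBECs) after 14 days on Matrigel. Controls were labelled wild type, with 1 library for each stage. The other 5 libraries, 1 of iHBs, 2 of iHPs and 2 of iBECs, were labelled Lats1-/-;Lats2f/fl;Alb-cre, named L1L2_Alb, in which the *Lats1* allele is germline and Cre under the albumin promoter acts on *Lats2* in hepatoblasts and their descendants. LATS1 and LATS2 are kinases of the Hippo pathway that restrain YAP and TAZ, and the comparisons ask how the levels of these factors differed with the loss of the kinases and with the direction of differentiation. No source says whether libraries came from separate embryos or cultures, so p-values measure the spread between these libraries only.

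The deposited values correspond to 18436865 to 33229075 reads per library, and the members had 87 to 2917 reads in a library. Against the control of their stage, *Lats2* was higher in all 5 labelled libraries, and *Lats1* was higher in 4 and lower in 1, L1L2_Alb iHP replicate 2 (7.12 against 11.2 RPKM). *Lats1* was at 5.38 to 11.2 RPKM in controls and 7.12 to 22.7 RPKM in libraries labelled L1L2_Alb, and *Lats2* at 6.90 to 10.1 and 10.9 to 27.6 RPKM, but whole-gene values include parts outside a deletion and so do not check the labels. Directions by genotype below rest on the labels. Each of the 8 hepatoblast and hepatocyte markers was above 0 in every library, with summed levels of 13499 to 35869 RPKM. The stage labelled iBEC did not carry every biliary marker at its highest level. The log2 fold change of *Krt7* (a biliary keratin) in iBECs against iHBs was -2.13 (adjusted p = 0.0108 from limma), that of *Krt19* -0.97 (adjusted p = 0.126) and that of *Spp1* (osteopontin) 3.99 (adjusted p = 0.00193), while *Alb*, a hepatocyte gene, had 2.37 (adjusted p = 0.0301). The 8 hepatoblast and hepatocyte markers did not all move with *Alb*. In this comparison 3 were called higher and 1 lower, *Afp* (-1.78, adjusted p = 0.0312 from limma).

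Promoters of the 3 FOXA genes are shown because *Foxa2* and *Foxa3* carried the called genotype differences and *Foxa1* did not. RefSeq promoters of build GRCm38.p6 matched 6 of the 7 members, with 8 start sites in all, and the 250 bases before a start were searched on both strands for TGTTTAC (a FOXA site), TTGCNNAA (a C/EBP site), GGAATG (a TEAD site, the DNA-binding partner of YAP), TATAAA and CCAAT. Capitals mark every match, and no matches overlapped.
Foxa1, chr12:57546112-57546361, minus strand: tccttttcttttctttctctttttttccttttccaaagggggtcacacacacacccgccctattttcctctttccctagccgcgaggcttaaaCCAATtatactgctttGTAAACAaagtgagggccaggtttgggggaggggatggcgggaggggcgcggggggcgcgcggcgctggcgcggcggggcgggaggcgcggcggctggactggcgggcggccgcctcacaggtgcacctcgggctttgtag
Foxa2, the most upstream of 3 starts, chr2:148046970-148047219, minus strand: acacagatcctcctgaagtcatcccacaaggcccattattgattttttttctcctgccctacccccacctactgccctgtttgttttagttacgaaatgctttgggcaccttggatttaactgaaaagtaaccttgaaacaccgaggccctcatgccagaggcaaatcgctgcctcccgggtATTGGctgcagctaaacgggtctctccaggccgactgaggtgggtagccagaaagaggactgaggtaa
Foxa3, chr7:19023540-19023789, minus strand: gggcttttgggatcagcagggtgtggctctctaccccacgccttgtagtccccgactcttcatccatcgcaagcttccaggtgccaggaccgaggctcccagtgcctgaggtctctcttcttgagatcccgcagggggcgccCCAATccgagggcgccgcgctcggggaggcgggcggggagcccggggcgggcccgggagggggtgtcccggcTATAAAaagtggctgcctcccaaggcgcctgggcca
The letters TGTTTAC stood, on the opposite strand, 141 bases before the *Foxa1* start and in no other member window, against 3.16% of 32817 promoters. TATAAA stood 36 bases before the *Foxa3* start and 30 bases before the *Cebpa* start (12.4% of promoters held it), and 208 bases before another *Foxa2* start that is not shown. CCAAT stood 157 bases before the *Foxa1* start, 68 bases before a *Foxa2* start and 108 bases before the *Foxa3* start, and 89 and 28 bases before the *Cebpg* start, and was in 33.8% of promoters. No window of the 6 matched members held TTGCNNAA or GGAATG, which were in 9.57% and 12.6% of promoters. *Cebpd* had no matched promoter and was not searched.

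*Foxa2* was higher and *Foxa3* lower in all 5 libraries labelled L1L2_Alb than in the control of their stage. *Foxa2* stood at 9.96 RPKM in control iHBs, 10.4 RPKM in control iHPs and 11.5 RPKM in control iBECs. In the labelled libraries it was at 35.6 RPKM in iHBs, at 26.8 and 36.0 RPKM in iHPs, and at 13.1 and 19.4 RPKM in iBECs. The genotypes did not overlap, and the controls differed little between stages while the labelled iBECs lay nearest to them. The log2 fold change across stages was 1.18 (standard error 0.276, 95% interval 0.55 to 1.81, adjusted p = 0.0351 from limma), or 2.26-fold on the RPKM + 1 scale. Within stages, *Foxa2* exceeded its control by 1.74 on the log2 scale in iHBs, by 1.49 ± 0.291 (SD, n = 2) in iHPs and by 0.44 ± 0.377 (SD, n = 2) in iBECs, a difference between stages that the interaction test did not call (adjusted p = 0.9999).

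*Foxa3*, which is switched on later in the endoderm than the other two FOXA genes and acts in hepatocyte metabolism, was at 6.82 RPKM in control iHBs, 10.4 RPKM in control iHPs and 14.3 RPKM in control iBECs. Libraries labelled L1L2_Alb held 1.76 RPKM in iHBs, 2.31 and 3.02 RPKM in iHPs, and 7.01 and 8.50 RPKM in iBECs. Every labelled library was below the control of its stage, but the labelled iBECs reached the level of control iHBs, so that the genotypes overlapped when stages were pooled. The log2 fold change was -1.30 (standard error 0.225, 95% interval -1.82 to -0.79, adjusted p = 0.0122 from limma), or 0.406 times the control level. The difference from control was -1.50 in iHBs, -1.64 ± 0.196 (SD, n = 2) in iHPs and -0.81 ± 0.173 (SD, n = 2) in iBECs, on the log2 scale.

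*Foxa1*, the least abundant FOXA gene in 5 of 8 libraries, showed no called genotype difference. It was at 3.83 RPKM in control iHBs and 4.14 RPKM in the labelled iHBs. Control iHPs held 4.64 RPKM against 5.38 and 3.02 RPKM, and control iBECs 1.21 RPKM against 2.47 and 3.38 RPKM. Control iBECs were the lowest of all libraries, and the 2 labelled iHP libraries lay on either side of their control. The log2 fold change was 0.27 (standard error 0.270, 95% interval -0.35 to 0.89, adjusted p = 0.593), and it turned to -0.05 without the control iBEC library.

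**Figure D1:**
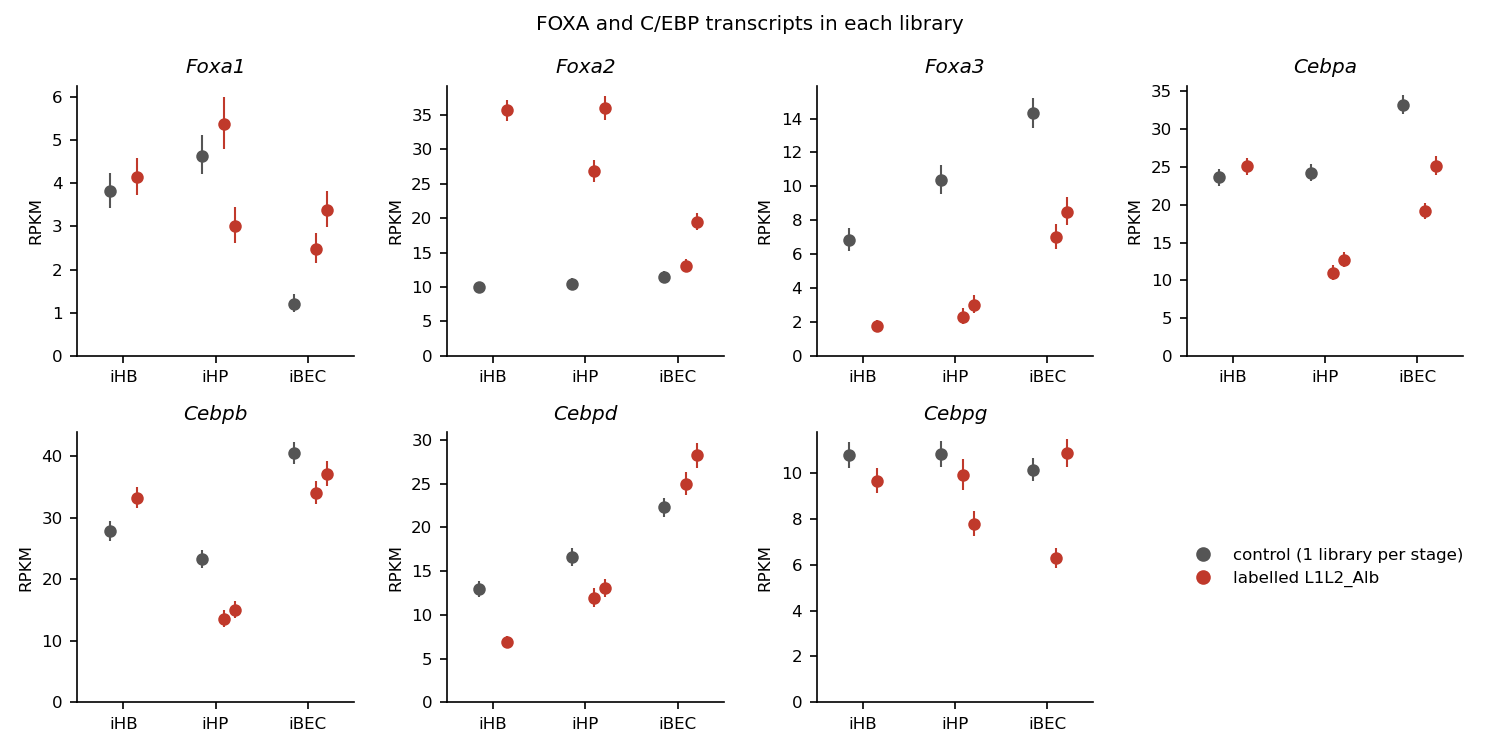
RPKM (linear axis from 0) of the 7 genes by stage, with 1 point per library and bars for the 95% Poisson interval of its reads, which covers counting error only. Grey points are controls and red points libraries labelled L1L2_Alb. *Foxa2* sits at 13.1 to 36.0 RPKM in the labelled libraries against 9.96 to 11.5 RPKM in controls, and *Foxa3* lies below its control at each stage.

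Of the 7 members, 2 were called between the genotypes (1 higher, 1 lower), where 9.57% of the 13421 genes tested were called, 6.2% higher and 3.37% lower. The ranges of the genotypes did not overlap for 1 member, *Foxa2*, against 12.9% of all genes, and 2 members moved one way in all 5 labelled libraries, against 33% of all genes. The median log2 fold change was -0.24 over the members and 0.058 over all genes. The *Foxa2* call was lost without control iHB (adjusted p = 0.171), L1L2_Alb iHB (0.174), control iHP (0.249), L1L2_Alb iHP replicate 1 (0.0647) or 2 (0.0594) or L1L2_Alb iBEC replicate 2 (0.0749), and under both scalings tried (0.0608 and 0.0622). The *Foxa3* call was lost without control iHB (0.08), L1L2_Alb iHB (0.0783) or control iHP (0.123), and kept its sign throughout.

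**Figure D2:**
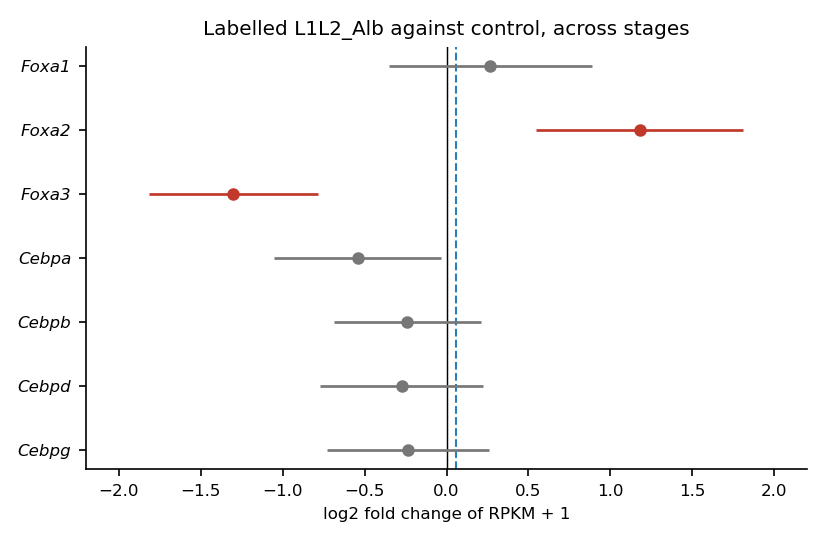
Log2 fold change of RPKM + 1, libraries labelled L1L2_Alb against controls across stages, for the 7 genes with 95% intervals from limma. Red marks adjusted p under 0.05 (*Foxa2*, *Foxa3*), grey the others, and the dashed line the median of 0.058 over all genes. *Foxa2* lies at 1.18 and *Foxa3* at -1.30.

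Shares of the family total are given as a description, with no test. *Foxa2* made up 40.9% to 48.3% of the summed FOXA RPKM in controls. It made up 85.8% in the labelled iHBs, 77.7% and 85.6% in the labelled iHPs, and 58.0% and 62.1% in the labelled iBECs. *Foxa3* led the family in 1 library, control iBECs, with 53.0%, and was at 4.24% to 7.18% in labelled iHBs and iHPs. The log2 ratio of *Foxa2* to *Foxa3*, each as RPKM + 1, was 0.49, 0.00 and -0.29 in control iHBs, iHPs and iBECs. In the labelled libraries it was 3.73 in iHBs, 3.07 and 3.20 in iHPs, and 0.82 and 1.10 in iBECs. All 5 were above all 3 controls, and the effect of genotype on the ratio was 2.48 (p = 0.0556, exact permutation test within stages, two-sided, adjusted p = 0.167 over 9 pairs). This is the smallest p that the 18 arrangements allow, so no pair could pass 0.05. The ratio restates the opposite changes of *Foxa2* and *Foxa3* given above and is not further support for them. The summed FOXA level was 20.6 to 27.0 RPKM in controls and 22.6 to 42.0 RPKM in labelled libraries, which overlapped.

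**Figure D3:**
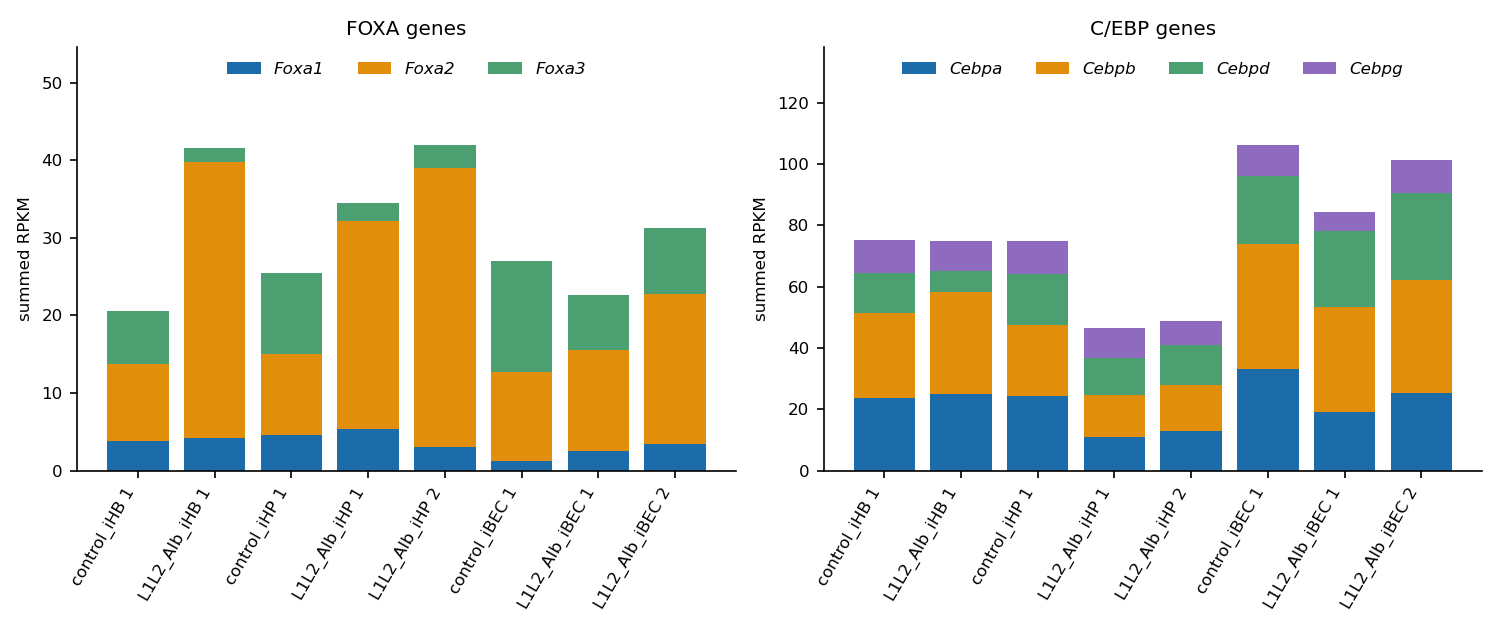
Summed RPKM (linear axis from 0) of the FOXA genes (left) and the C/EBP genes (right) in each library, stacked by gene. *Foxa2* fills 77.7% to 85.8% of the FOXA bar in labelled iHBs and iHPs, and the C/EBP bar is shortest in the 2 labelled iHP libraries, at 46.5 and 48.6 RPKM.

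No C/EBP gene passed the test between genotypes, although the fitted change of each was below 0. *Cebpa* was at 23.6 RPKM in control iHBs and 25.1 RPKM in labelled iHBs, at 24.2 against 11.0 and 12.7 RPKM in iHPs, and at 33.3 against 19.2 and 25.1 RPKM in iBECs. Labelled iHPs were the 2 lowest libraries, whereas the iHB libraries of the genotypes lay close together. *Cebpa* had a fitted log2 fold change of -0.54 (standard error 0.222, 95% interval -1.05 to -0.03, adjusted p = 0.166 from limma), and -0.29 without control iHP. *Cebpb*, the C/EBP gene with the highest RPKM in 7 of 8 libraries, was at 27.8 against 33.2 RPKM in iHBs, 23.2 against 13.6 and 15.0 RPKM in iHPs, and 40.6 against 34.1 and 37.1 RPKM in iBECs, control first. Its labelled iHPs were again the lowest libraries, and the other labelled libraries lay within the control range. Across stages the log2 fold change was -0.24 (standard error 0.196, 95% interval -0.69 to 0.21, adjusted p = 0.493), and without the control iHP library it was 0.00.

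*Cebpd* was at 12.9 RPKM in control iHBs and 6.89 RPKM in labelled iHBs, at 16.6 against 12.0 and 13.1 RPKM in iHPs, and at 22.3 against 25.0 and 28.2 RPKM in iBECs. It was below control in labelled iHBs and iHPs and above control in labelled iBECs, and the ranges overlapped. For *Cebpd* the log2 fold change was -0.27 (standard error 0.216, 95% interval -0.77 to 0.22, adjusted p = 0.479), with -0.07 without either iHB library and -0.57 without control iBEC. *Cebpg*, which varied least of the members with a 1.73-fold range over all libraries, was at 10.8 against 9.65 RPKM in iHBs, 10.8 against 9.90 and 7.77 RPKM in iHPs, and 10.1 against 6.27 and 10.8 RPKM in iBECs. The 2 labelled iBEC libraries were the lowest and the highest of all 8. Its log2 fold change was -0.23 (standard error 0.215, 95% interval -0.73 to 0.26, adjusted p = 0.546).

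Within the C/EBP family *Cebpg* ranked last in 7 of 8 libraries, and *Cebpa* went from rank 1 or 2 in the controls and labelled iHBs to rank 3 in the 4 labelled iHP and iBEC libraries. The log2 ratio of *Cebpa* to *Cebpb* was lower in labelled libraries by -0.30 (p = 0.0556, exact permutation test within stages, two-sided, adjusted p = 0.167). Of the 9 paralog pairs, 3 reached that smallest p (*Foxa1* over *Foxa3*, *Foxa2* over *Foxa3* and *Cebpa* over *Cebpb*), *Foxa1* over *Foxa2* had -0.91 (exact permutation p = 0.333), and the other C/EBP pairs had exact permutation p-values from 0.278 to 1. Pairs within a family share genes, so they are not separate results. The summed C/EBP level was 74.9 to 106 RPKM in controls and 46.5 to 101 RPKM in labelled libraries.

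The family also holds *Cebpe*, a factor known mainly from granulocyte maturation, and *Ddit3* (CHOP), a stress-induced dimer partner. *Cebpe* was at 26.3, 15.6 and 4.55 RPKM in control iHBs, iHPs and iBECs, with 187 to 925 reads. Labelled libraries held 13.0 RPKM in iHBs, 0.307 and 0.152 RPKM in iHPs, and 0.125 and 2.88 RPKM in iBECs, so that *Cebpe* was below its control in 5 of 5. The labelled iHP values rest on 7 and 4 reads and the lower labelled iBEC value on 4 reads, near the floor. The log2 fold change of *Cebpe* over stages was -2.14 (adjusted p = 0.0527 from limma). *Ddit3* was above its control in 5 of 5 labelled libraries, with a log2 fold change of 0.82 (adjusted p = 0.0692). Over all genes tested, 33% moved one way in all 5 labelled libraries. Among the 10 tested C/EBP relatives and partners of that list, 0 were called higher and 1 lower, *Atf5* (-1.12, adjusted p = 0.0391). Of all genes, 6.2% were called higher and 3.37% lower.

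Myeloid cells use *Cebpa*, *Cebpb*, *Cebpd* and *Cebpe* as well. Beside the C/EBP values, the summed level of 11 myeloid markers was 4131 to 14846 RPKM in controls and 1028 to 5572 RPKM in labelled libraries, and of these markers 8 had a fitted change below 0, 3 above 0 and 0 were called (median log2 fold change -0.93). In iHBs the sum was 14846 RPKM in the control and 5572 RPKM in the labelled library, where *Cebpa* and *Cebpb* were above their control. In iHPs it was 9805 RPKM in the control and 1028 and 1251 RPKM in the labelled libraries, where both genes were below their control. In iBECs it was 4131 RPKM against 2576 and 5000 RPKM, and both genes were again below their control. No myeloid marker was at 0 in every library. The 9 myeloid targets of C/EBP factors had a median of -3.17 with 8 lower and 0 called. In bulk libraries fewer cells of a type and less RNA per cell cannot be told apart, and the part of these cells in the C/EBP values was not tested.

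Known targets of the factors were described by list, each beside a median of 0.058 over all genes tested, and the lists share genes. Of all genes tested between the genotypes, 6.2% were called higher and 3.37% lower. Of the 10 tested FOXA targets of the liver, 0 were called higher and 4 lower, with a median log2 fold change of -1.72. *Ttr* (transthyretin), a classical FOXA target, had -1.95 (adjusted p = 0.00445), and *G6pc* (glucose-6-phosphatase) -2.50 (adjusted p = 0.0202). Of the 9 tested *Cebpa* targets, 0 were called higher and 2 lower (median -1.16), both of which, *Alb* and *G6pc*, are also on the FOXA list. Of 14 acute-phase genes, known targets of *Cebpb* and *Cebpd*, 0 were called higher and 11 lower, with a median of -2.55, and *Hpx* (hemopexin) had -3.01 (adjusted p = 0.00283). The 10 genes of the ATF4 and *Cebpg* stress list had 0 called in either direction and a median of 0.05, and 16 other tested FOX genes had 0 called with a median of -0.01. Of the 12 genes of the hepatic factor network in which FOXA and C/EBP proteins act, 5 were called lower and 1 higher (median -0.95). *Hnf4a*, a nuclear receptor that works with FOXA and C/EBP factors at hepatocyte genes, had -1.33 (adjusted p = 0.00373), and the gene called higher was *Gata6* (1.44, adjusted p = 0.0148), named after its values were seen. The summed level of the network was 171 to 213 RPKM in controls and 106 to 136 RPKM in labelled libraries, and that of the 11 mesenchymal markers, whose part in these values was not tested, 3184 to 5552 and 1993 to 4703 RPKM. Of the marker lists, 5 of 8 hepatoblast and hepatocyte markers were called lower, 2 of 7 biliary markers higher and 2 lower, and 2 of 4 tested erythroid markers lower (median -1.74). Of the 11 mesenchymal markers, 10 had a fitted change below 0 (median -1.01) and 0 were called lower. The 1 called higher was *Vim* (1.26, adjusted p = 0.0167 from limma). Erythroid markers summed to 5.54 to 250.4 RPKM in controls and 2.75 to 47.2 RPKM in labelled libraries, with 1 of 8 at 0 in every library, and their part was not tested.

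Stage differences were fitted with genotype in the model. *Foxa3* and *Cebpd* were higher in iBECs than in iHBs, on the log2 scale by 1.40 for *Foxa3* (SE 0.281, adjusted p = 0.0273, limma) and by 1.36 for *Cebpd* (SE 0.270, adjusted p = 0.0261). Both rose in order from iHBs through iHPs to iBECs in the controls and in the labelled libraries. *Foxa1* (-0.67, adjusted p = 0.25), *Foxa2* (-0.58, adjusted p = 0.314), *Cebpa* (0.14, adjusted p = 0.776), *Cebpb* (0.32, adjusted p = 0.429) and *Cebpg* (-0.14, adjusted p = 0.76) did not pass. The 2 of 7 members called stand against 5.72% of all genes, and the median over all genes was -0.25, from which *Foxa3* differed by 1.65 and *Cebpd* by 1.61. The *Foxa3* call was lost without control iHB (adjusted p = 0.146), L1L2_Alb iHB (0.348), or L1L2_Alb iBEC replicate 1 (0.0734) or 2 (0.0769), and that of *Cebpd* without the same libraries (0.0657, 0.397, 0.0704 and 0.071).

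Between iBECs and iHPs, *Cebpb* was higher in iBECs by 1.10 on the log2 scale (standard error 0.216, 95% interval 0.60 to 1.59, adjusted p = 0.0335 from limma), 1 of 7 members against 4.12% of all genes. *Foxa3* (0.98, adjusted p = 0.0692), *Cebpd* (0.82, adjusted p = 0.097) and *Cebpa* (0.71, adjusted p = 0.145) had positive values that did not pass, and *Foxa1* (-0.70, adjusted p = 0.215) and *Foxa2* (-0.57, adjusted p = 0.316) negative ones. Both scalings tried added calls for *Foxa3* and *Cebpd*, and so did leaving out control iBEC (adjusted p = 0.0289 and 0.036). The *Cebpb* call was lost without L1L2_Alb iHP replicate 1 (0.126), control iBEC (0.0507), or L1L2_Alb iBEC replicate 1 (0.0979) or 2 (0.115). Within the 4 labelled libraries alone, *Cebpb* was higher in iBECs by 1.26 (adjusted p = 0.0563) and *Foxa3* by 1.26 (adjusted p = 0.0767), and 0 members were called against 3.41% of all genes.

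Target lists were counted by stage as well. Of the 14 acute-phase genes, 10 were called higher in iBECs than in iHBs and 0 lower (median 4.49, all genes -0.25). Of 9 *Cebpa* targets 3 were called higher and 0 lower, and of 10 FOXA targets 3 higher and 1 lower. Over all genes tested, 2.94% were called higher and 2.78% lower in this comparison, and the lists share genes. Between iBECs and iHPs the called genes were 5 of 14 acute-phase genes, 4 of 9 *Cebpa* targets and 2 of 10 FOXA targets. All of these were higher in iBECs, and over all genes 2.45% were called higher there and 1.67% lower. The ATF4 and *Cebpg* list had 0 called in each stage comparison, and no list had a call in iHPs against iHBs, where no gene was called at all. Beside these counts, 4 of 4 tested erythroid markers were called lower in iBECs than in iHBs and 2 of 4 lower than in iHPs, and their part in the result was not tested.

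No member was called between iHPs, the stage treated with oncostatin M, and iHBs. The fit takes in libraries of both genotypes and does not single out the treatment. Between iHPs and iHBs *Cebpb* had a fitted change of -0.78 (standard error 0.244, 95% interval -1.34 to -0.22, adjusted p = 0.436), *Cebpa* of -0.57 (adjusted p = 0.64) and *Cebpd* of 0.54 (adjusted p = 0.647). Over all genes 0% were called, with 1158 of 13421 at an unadjusted p under 0.05 from limma. *Osmr*, the oncostatin M receptor, was at 14.2, 26.8 and 33.7 RPKM in control iHBs, iHPs and iBECs, and *Socs3*, a feedback inhibitor of cytokine signalling, at 27.5, 63.7 and 115 RPKM. Neither was called in iHPs against iHBs (adjusted p = 0.362 and 0.152), and both were in iBECs against iHBs (0.0197 and 0.0068). In controls alone, with 1 library per stage and no test, *Cebpa* moved from 23.6 to 24.2 RPKM and *Cebpb* from 27.8 to 23.2 RPKM between iHBs and iHPs. In labelled libraries *Cebpa* moved from 25.1 to 11.0 and 12.7 RPKM and *Cebpb* from 33.2 to 13.6 and 15.0 RPKM. A fit of the labelled libraries alone gave log2 fold changes of -1.02 for *Cebpa* and -1.16 for *Cebpb*. It holds 1 iHB library, so these are given as effect sizes only. In the interaction of genotype and stage, 0% of genes were called (733 at an unadjusted p under 0.05 from limma), and each member had an adjusted p of 0.9999.

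**Figure D4:**
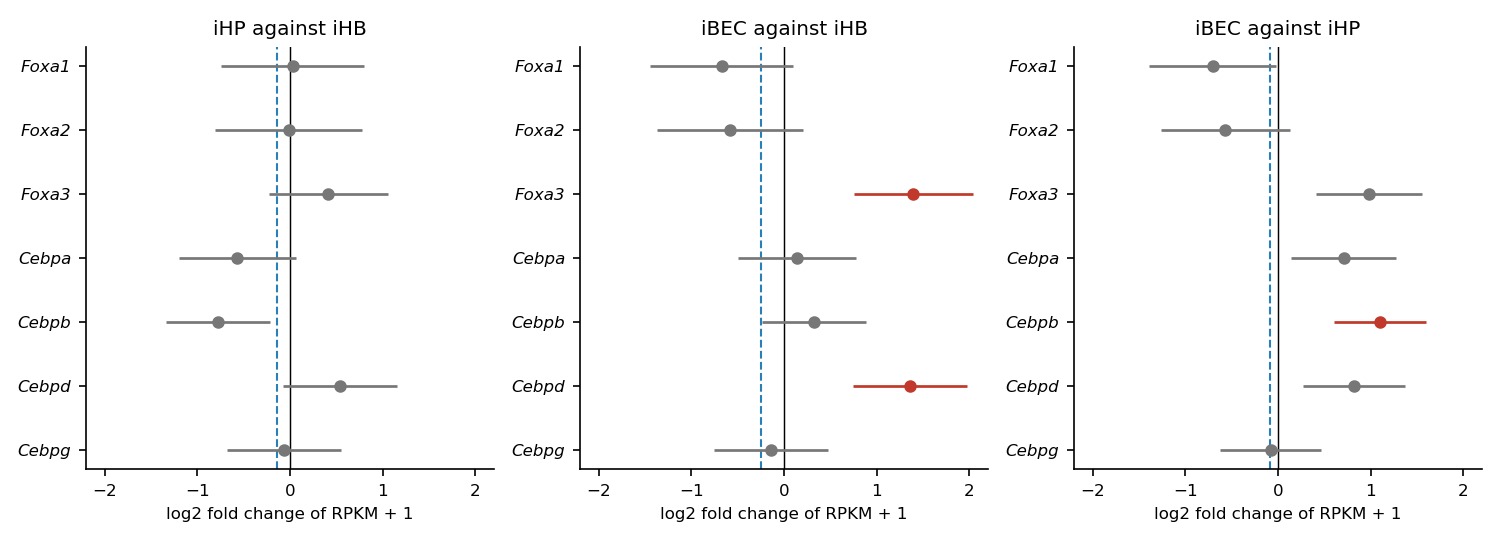
Log2 fold change of RPKM + 1 between stages, with genotype in the limma model and 95% intervals, for the 7 genes. Red marks adjusted p under 0.05, grey the others, and the dashed line the median over all genes (-0.145, -0.253 and -0.091 from left to right). *Foxa3* and *Cebpd* are marked in iBECs against iHBs and *Cebpb* in iBECs against iHPs.

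Likeness between genes was taken as Pearson's r of log2(RPKM + 1) over the 8 libraries among genes averaging 5 RPKM or more, as a description, since the libraries share stages and genotypes. The genes most like *Foxa2* were *Bsdc1* (0.987), *Zfpm1* (0.981) and *Sgpl1* (0.980), and those most like *Foxa3* were *Prelp* (0.987), *Qprt* (0.986) and *Cd1d1* (0.985). *Foxa1* was closest to *Sptan1*, *Myo5b* and *Abcb1b* (0.957 to 0.965). *Mmp9*, a matrix metalloproteinase of neutrophils and macrophages, headed the lists of both *Cebpa* (0.945) and *Cebpb* (0.957). For *Cebpa*, *Cpne2* and *Zfp523* followed (0.940 and 0.939), and for *Cebpb*, *Pex16* and *Ndufaf6* (0.951 and 0.950). *Cebpd* was closest to *Slit3* (0.964) and *Fgl1* (0.955), and *Cebpg* to *Erf* (0.948), *Bccip* (0.934) and *Mex3d* (0.913). Among the members the strongest positive value was between *Cebpa* and *Cebpb* (0.897) and the strongest negative one between *Foxa2* and *Foxa3* (-0.862).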

How the data were processed

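RNA-seq libraries (Illumina TruSeq), 8 in all, were measured, 3 control and 5 labelled L1L2_Alb, and grouped by their titles. The authors deposited 1 table of RPKM values per gene. The submitters' notes name Bowtie 0.12.2 and mouse build mm8, and the counting method and annotation are not given in the sources used here. Of 23471 entries, 4 with repeated symbols were left out. Genes averaging 1 RPKM or more over the libraries were kept on the log2(RPKM + 1) scale, and limma 3.58.1 (R 4.3.3) was fitted with genotype and stage (4 residual degrees of freedom, trend), with Benjamini-Hochberg adjustment over 13421 genes and a threshold of 0.05. The interaction was a moderated F test over 6 conditions, and the labelled iBEC and iHP libraries were also fitted alone (2 residual degrees of freedom). The scripts were tested on simulated data. Read totals were recovered from the steps between low RPKM values of short genes, and a member's reads from the shortest length at which all 8 values were whole (a multiple of it would give more reads). Poisson intervals (95%) of reads cover counting error only. Named genes were the 7 members with every value, *Cebpe* and *Ddit3*, at most the 3 genes per list with the smallest p for genotype, and the 3 genes most like each member, of which some are not reported here. *Gata6*, *Socs3*, the named myeloid markers and, as a check of the stages, *Alb* and *Afp* were named after their values were seen. Members, lists and motifs were chosen with earlier results of these data known. Unplanned permutation tests of family sums and shares and an unplanned crossed replicate pairing were also run and, after their values had been seen, not kept, so sums and shares carry no test. Lists are described by counts and medians. Alternatives were another pseudocount (0.1), 2 scalings, 2 filters (none, or a mean of at least 5 RPKM), no trend, averaging, the labelled libraries alone, a replicate block, and leaving out each library or stage. RPKM scale each library to its own total, so a few abundant genes can shift all others.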

Additional observations from a re-analysis of the deposited data

Results flagged for a closer look

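For *Cebpa*, *Cebpb* and *Cebpd*, the libraries labelled L1L2_Alb lay above their control at one stage and below it at another, in every library of those stages. For *Cebpa* the excess was in 1 labelled iHB library, by 0.083 on the log2(RPKM + 1) scale. Its Poisson interval of reads, 24.0 to 26.2 RPKM, overlapped that of control iHBs, 22.5 to 24.8 RPKM. For *Cebpb* the intervals in iHBs, 31.5 to 35.0 RPKM labelled and 26.3 to 29.5 RPKM in the control, did not overlap. In iBECs its interval in labelled replicate 2, 35.2 to 39.2 RPKM, overlapped that of the control, 38.8 to 42.4 RPKM. The intervals cover counting error only, and its part in the switches of sign was not tested. The share of all genes with such a switch is not given here. The test of genotype by stage called none of the 3 genes (adjusted p = 0.9999 from limma for each), and the single pairs of stages were not tested. The values below are differences, on the log2(RPKM + 1) scale, between the change from control at one stage and that at another. For *Cebpa* the value was -1.06 for iHPs against iHBs and -0.661 for iBECs against iHBs. For *Cebpb* it was -0.908 for iHPs against iHBs and -0.431 for iBECs against iHBs. For *Cebpd* it was 1.06 for iBECs against iHBs and 0.624 for iBECs against iHPs. Each stage had 1 control library and the iHB stage 1 labelled library, so that 1 library enters every value.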

How the results depend on the processing

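Between genotypes 1284 genes were called, against 686 with no filter, 326 without the iHB stage, 132 without the iHP stage and 205 to 1695 without 1 library (205 without control iHP). Higher and lower calls, 832 and 452, became 612 and 577 under upper-quartile scaling. *Foxa2* did not pass with upper-quartile scaling (1.07), quantile normalization (1.09), no filter (1.18), averaged libraries (1.23), no iHB stage (0.97) or no iHP stage (1.00), and *Foxa3* did not pass without the iHB (-1.23) or iHP stage (-1.11). Without 1 library *Foxa2* ran from 0.97 to 1.60 and *Foxa3* from -1.58 to -1.11, *Foxa1* from -0.05 to 0.51 (-0.05 also without the iBEC stage) and *Cebpb* from -0.42 to 0.00 (0.00 also without the iHP stage). For iHPs against iHBs, 0 genes became 2 with upper-quartile scaling, 4 with a mean of at least 5 RPKM and 0 to 55 without 1 library. There *Foxa1* turned to -0.02 in labelled libraries alone, *Foxa2* to 0.10 and *Cebpg* to 0.05 with upper-quartile scaling (0.14 and 0.13 with quantile normalization), with ranges without 1 library of -0.23 to 0.27, -0.37 to 0.41 and -0.14 to 0.02. For iBECs against iHBs, 768 became 492 with no filter, 334 in labelled libraries alone and 99 to 1739 without 1 library, and the split of 395 higher and 373 lower became 496 and 179 with upper-quartile scaling. *Foxa3* did not pass with no filter (1.40), averaging (1.31) or labelled libraries alone (1.66), nor *Cebpd* with no filter (1.36) or averaging (1.27), and without 1 library they ran from 1.24 to 1.70 and from 0.95 to 1.70. *Cebpa* turned to -0.18 in labelled libraries alone (-0.25 to 0.61 without 1 library) and *Cebpg* to 0.12 and 0.09 with the 2 scalings (-0.31 to 0.04). For iBECs against iHPs, 553 became 211 with no filter, 62 with averaging and 156 to 987 without 1 library, and the split of 329 and 224 became 459 and 169. *Cebpb* did not pass with no filter (1.10), averaging (1.02) or labelled libraries alone (1.26), with 0.98 to 1.32 without 1 library, and *Cebpg* turned to 0.06 with upper-quartile scaling (-0.27 to 0.12). In the 4 labelled libraries 457 became 0 with no filter and 0 to 126 without 1 library, and *Cebpg* turned to 0.04 with upper-quartile scaling (-0.43 to 0.28). There *Cebpb* passed with upper-quartile scaling (1.38, adjusted p = 0.0386) and a mean of at least 5 RPKM (1.26, adjusted p = 0.0476). The replicate block gave 911 calls and *Cebpb* passed (1.26, adjusted p = 0.0385), while same-numbered libraries shared only a number (correlation of deviations -0.0216). The *Cebpb* to *Cebpg* ratio turned to 0.01 with a pseudocount of 0.1 (-0.10 to 0.10 without 1 library), and that of *Cebpd* to *Cebpg* ran from -0.17 to 0.03. The cause of these changes was not tested. *Foxa1*, with a mean of 3.51 RPKM, was not in the table filtered at 5 RPKM.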
